A study of Mus musculus with 3 samples.

Results

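Ccl3, Ccl4, Ccl5 and Xcl1 are 4 chemokine genes best known from cytotoxic lymphocytes, and they were taken by symbol from the 32285 genes of a single-cell RNA data set of mouse blood. The data came from peripheral blood mononuclear cells of C57BL/6 mice, with 1 library for each of 3 groups. Aged mice had received AA for 1 month (aged+AA), aged mice had received PBS for 1 month (aged), and young mice had received PBS for 1 month (young). AA is ascorbic acid by the series title, and all animals were of the same strain. The labels used here give neither the number of mice behind a library nor their ages in months, so nothing could be tested between libraries. The 95% intervals in parentheses are exact (Poisson for levels, conditional binomial for ratios of levels, binomial for shares) and cover counting error only.

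Chemokines are small secreted proteins that attract cells carrying the matching receptor. Ccl3 and Ccl4, also called MIP-1 alpha and MIP-1 beta, and Ccl5, also called RANTES, are CC chemokines that attract T cells and monocytes, and Ccl3 and Ccl5 act on the receptor Ccr1. Xcl1, or lymphotactin, acts on Xcr1, a receptor of cross-presenting dendritic cells. Memory CD8 T cells hold Ccl5 RNA in store before they are stimulated, whereas Ccl3, Ccl4 and Xcl1 are known as genes that T cells, NK cells and, for Ccl3 and Ccl4, myeloid cells switch on after activation.

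Cells were gated by unique molecular identifiers (UMIs, each marking 1 captured RNA molecule) of marker genes. CD8 T cells needed 2 UMIs of Cd3d, Cd3e and Cd3g together, 2 of Cd8a and Cd8b1 together and none of Cd4. NK cells needed 2 of Ncr1, Klrb1c and Klre1 together and no Cd8b1, and basophils 2 of Mcpt8, Prss34 and Cpa3 together. After filtering, 10987 aged+AA, 9722 aged and 8769 young cells were kept. They had 4082, 3602 and 4458 UMIs in the median cell, and whole libraries had 80424480, 94944551 and 64496639 UMIs. The CD8 T gate held 2074, 812 and 1808 of these cells, the NK gate 195, 267 and 331, and the B gate 5375, 4377 and 2528. The libraries shared 21 to 30 cell barcodes pairwise. Markers of other classes were low but present in the CD8 T gate, where Klre1, used in the NK gate and also known from CD8 T cells, had 719, 411 and 135 UMIs, whereas the 3 basophil markers had 1, 2 and 4 UMIs and the platelet markers Pf4 and Ppbp 0, 13 and 0.

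All but Xcl1 of the genes lie on mouse chromosome 11 in the GENCODE M21 annotation of GRCm38. Ccl5 spans chr11:83525778-83530518 and Ccl3 chr11:83647844-83649355, both on the minus strand, and Ccl4 spans chr11:83662584-83664683 on the plus strand, 13228 bases from Ccl3. Xcl1 lies on chromosome 1, at chr1:164931644-164935527 on the minus strand, and overlaps the non-coding RNA gene Gm20743 of the plus strand. Each of the 4 genes has 3 exons. Sequences upstream of the RefSeq start site are given for comparison for Ccl3, of which myeloid cells (monocytes, neutrophils and basophils) held 69.5% of the UMIs of the aged cells, and for Xcl1, of which they held 1.15%. Both are from GRCm38.p6, minus strand, 250 bases that end just before the start, with capitals at the letters GGAAA on either strand (TTTCC as printed), the core of the motif bound by NFAT, a factor of T-cell activation:
Ccl3, chr11:83649379-83649628: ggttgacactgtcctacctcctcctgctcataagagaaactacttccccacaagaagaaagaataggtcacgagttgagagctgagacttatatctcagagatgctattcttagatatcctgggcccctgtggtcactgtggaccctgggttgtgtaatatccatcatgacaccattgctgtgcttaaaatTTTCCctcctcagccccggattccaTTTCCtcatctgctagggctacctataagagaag
Xcl1, chr1:164935523-164935772: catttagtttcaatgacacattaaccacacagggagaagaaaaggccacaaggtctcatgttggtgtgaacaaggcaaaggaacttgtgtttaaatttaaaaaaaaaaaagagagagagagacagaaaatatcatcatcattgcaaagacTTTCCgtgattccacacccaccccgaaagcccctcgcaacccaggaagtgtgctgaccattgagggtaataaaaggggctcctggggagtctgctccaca
GGAAA occurred at 2 positions for Ccl3 and 1 for Xcl1, and in 55.6% of 32851 promoter windows of the same length. The TATA box letters TATAAA and the AP-1 motif TGANTCA, searched on both strands, were in neither window, and were in 12.4% and 6.75% of all windows.

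The name of lymphocyte chemokines held for Ccl5 and Xcl1 in all 3 libraries, and for Ccl3 and Ccl4 in the young library. In the aged libraries much of the Ccl3 and Ccl4 RNA lay in myeloid cells. For Ccl4 in aged+AA, T and NK cells together still held more UMIs than myeloid cells. Of the 4318 UMIs, myeloid cells held 1460, NK cells 896 and CD8 T cells 598. CD4 T cells held 25, and T cells in neither the CD8 nor the CD4 gate 195. NK cells held 79.6% of the Ccl3 UMIs and 82.0% of the Ccl4 UMIs of the young cells. They held 13.5% of Ccl3 and 20.8% of Ccl4 in the aged+AA library, and 3.97% and 6.26% in the aged library. Basophils, granulocytes that make mast cell proteases such as Mcpt8, held 28.1% of Ccl3 and 24.8% of Ccl4 in the aged+AA library, and 50.1% and 49.0% in the aged library. They did so with 13 of 10987 aged+AA cells and 86 of 9722 aged cells, against 0 of 8769 young cells, which at a floor of 3 cells allows a young share of up to 0.0342%. CD8 T cells held 60.0% of the Ccl5 UMIs of the aged+AA cells, 45.5% in aged and 22.7% in young, and NK cells 9.03%, 25.7% and 48.1%. For Xcl1 the CD8 T share was 48.2%, 20.3% and 18.4%, and the NK share 12.9%, 38.6% and 58.8%.

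**Figure D1:**
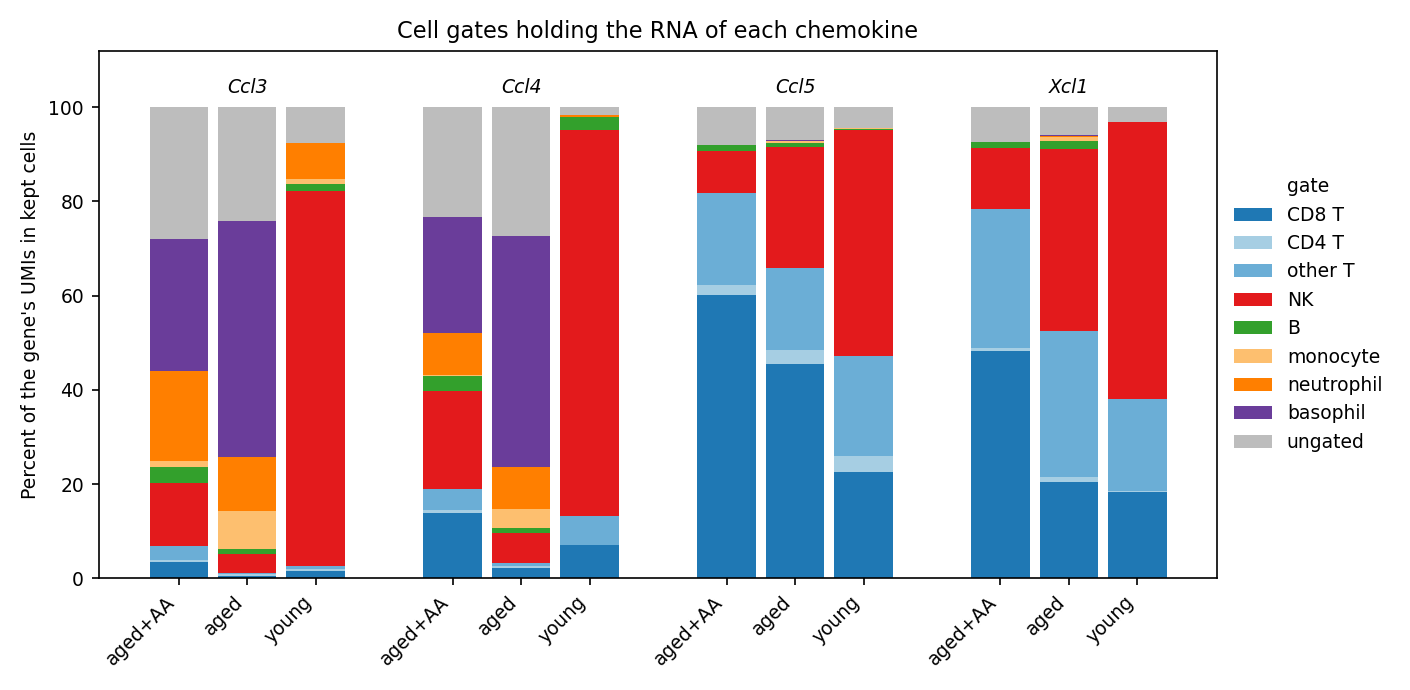
Percent of each gene's UMIs in kept cells (y axis) that lay in each cell gate (colours), for the aged+AA, aged and young libraries (x axis). Basophils hold 50.1% of Ccl3 and 49.0% of Ccl4 in the aged library and none in the young library, where NK cells hold 79.6% and 82.0%, and Ccl5 and Xcl1 lie in T and NK cells in all 3 libraries.

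Over all kept cells, Ccl3 stood at 33.6 CPM (UMIs per 1000000 UMIs of the gate) in aged+AA, 228 in aged and 4.39 in young cells. Ccl4 stood at 79.8, 443 and 24.1 CPM, Ccl5 at 3137, 2052 and 1133 CPM, and Xcl1 at 18.0, 10.7 and 8.43 CPM. The aged library was the highest for Ccl3 and Ccl4 and the aged+AA library for Ccl5 and Xcl1. The gates also differed in size, with monocytes, neutrophils and basophils making up 2.85% of aged+AA, 22.8% of aged and 0.775% of young cells.

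RNA outside cells (free RNA) was read from low-count barcodes of 28 to 57 UMIs in aged+AA, 36 to 79 in aged and 11 to 20 in young. In this free RNA Ccl3 stood at 61.8 CPM in aged+AA, 267 in aged and 7.11 in young, Ccl4 at 187, 587 and 29.9, Ccl5 at 3365, 1885 and 1332, and Xcl1 at 28.7, 15.1 and 5.69, the young Xcl1 value resting on 4 UMIs. B cells, taken for comparison, held Ccl3 at 2.69, 7.33 and 0.297 CPM, Ccl4 at 6.48, 15.2 and 2.97 CPM, Ccl5 at 87.6, 52.6 and 13.1 CPM, and Xcl1 at 0.547, 0.519 and 0 CPM. In the aged library these B-cell levels were 2.74%, 2.58%, 2.79% and 3.44% of the free RNA level for Ccl3, Ccl4, Ccl5 and Xcl1, so that the 4 genes stood near a single ratio. In aged+AA they were 4.35%, 3.46%, 2.60% and 1.91%, and the intervals of Ccl3 (3.14 to 5.98) and Ccl4 (2.83 to 4.21) lay above that of Ccl5 (2.47 to 2.74). The young values were 4.18%, 9.95%, 0.981% and 0%, from 3, 30, 132 and 0 UMIs in B cells, and were not near a single ratio. In the young library 1 B cell held 27 of the 30 Ccl4 UMIs.

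**Figure D2:**
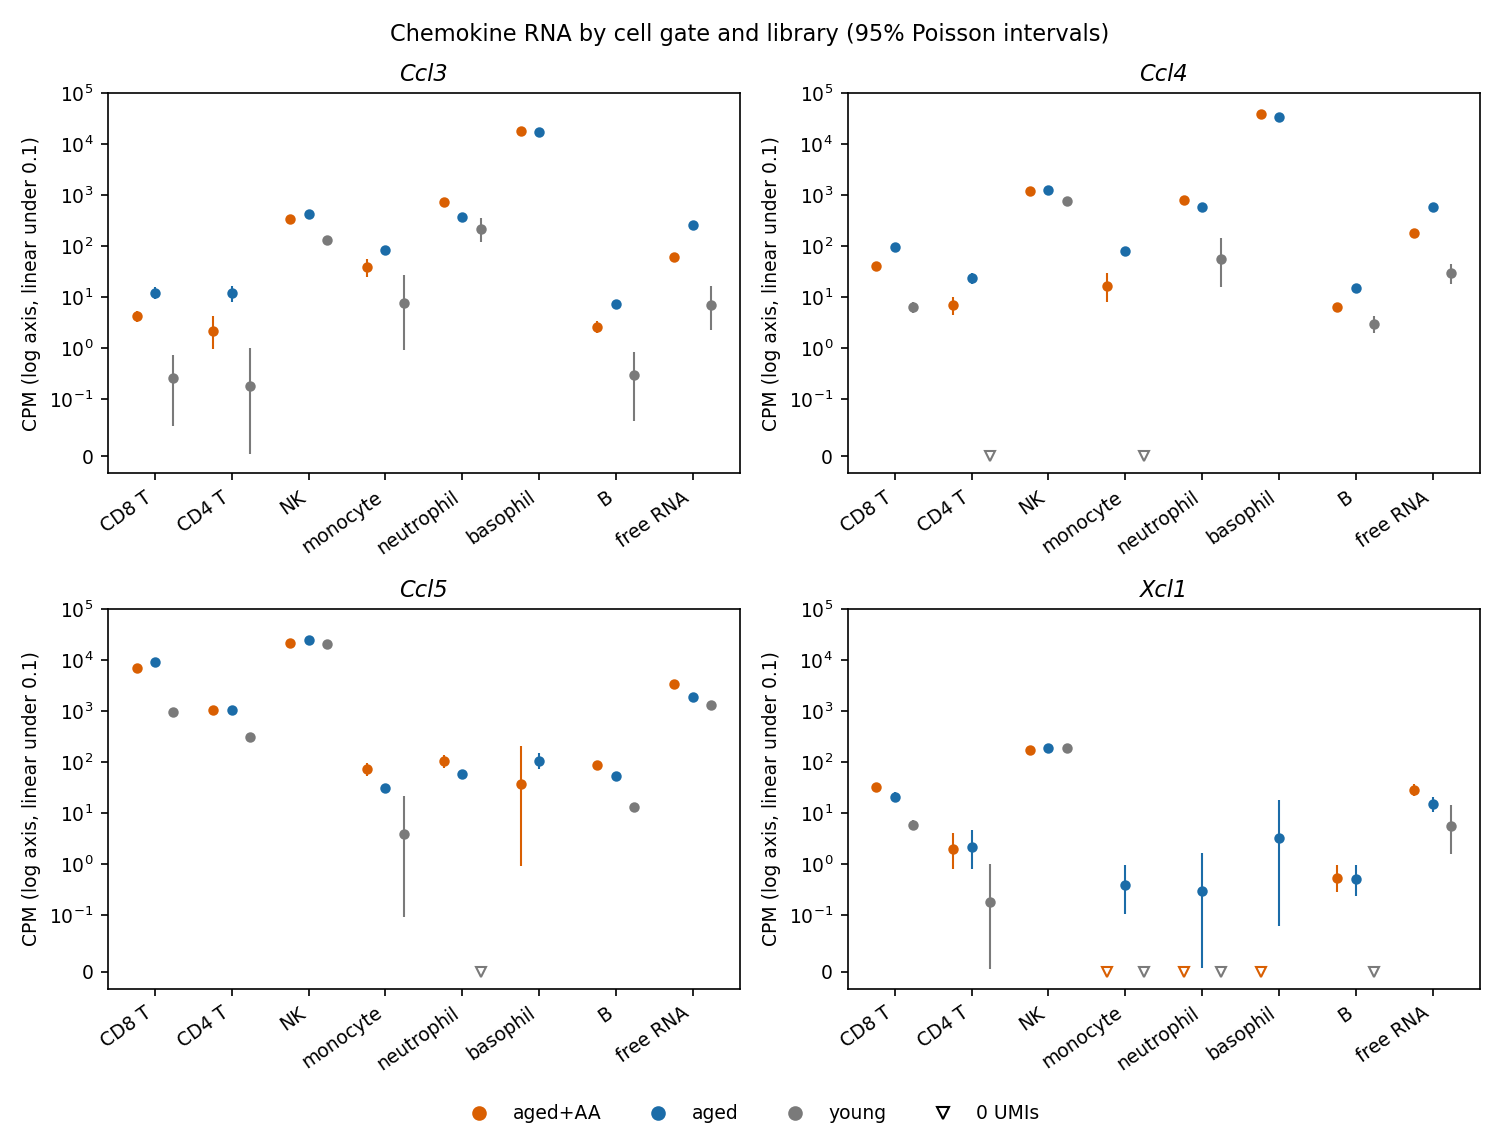
Level of each gene in CPM (y axis, log scale) by cell gate and in free RNA (x axis) for the aged+AA, aged and young libraries, with lines for 95% Poisson intervals and open triangles for 0 UMIs. Ccl5 and Xcl1 are high in NK and T cells, and Ccl3 and Ccl4 are high in basophils, neutrophils and NK cells.

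Within the aged library, where most gates were large, the order of the gates differed between the genes. Ccl5 ran from NK cells (24683 CPM) over CD8 T cells (9076), T cells in neither the CD8 nor the CD4 gate (4612) and CD4 T cells (1049) to basophils (106), neutrophils (58.3), B cells (52.6) and monocytes (30.9), and the intervals of neutrophils and B cells overlapped. Xcl1 ran from NK cells (193 CPM) over the other T cells (42.9) to CD8 T cells (21.1). All other gates had 9 UMIs or fewer and were not ranked, among them CD4 T cells with 6 UMIs (2.20 CPM). Ccl3 was highest in basophils (17914 CPM), followed by NK cells (424) and neutrophils (380), whose intervals overlapped, and monocytes (86.2). CD8 T cells (12.4), CD4 T cells (12.1) and the other T cells (9.27) could not be told apart in Ccl3, and the intervals of CD4 T cells and of the other T cells overlapped that of B cells (7.33). For Ccl4 the order was basophils (34043 CPM), NK cells (1296), neutrophils (588), CD8 T cells (96.5), monocytes (79.9), other T cells (41.6), CD4 T cells (23.8) and B cells (15.2), and no neighbours' intervals overlapped.

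CD8 T cells of the aged library had more Ccl5 RNA than those of the young library, by about 9 times. Ccl5 stood at 7106 CPM (7062 to 7149) in aged+AA, 9076 (8992 to 9159) in aged and 985 (967 to 1003) in young CD8 T cells, from 101947, 45505 and 11448 UMIs. The aged level was 9.22 times the young level (9.03 to 9.41) and the aged+AA level 0.783 times the aged level (0.774 to 0.792). With every cell thinned to 1000 UMIs, 53.3% of aged+AA, 59.1% of aged and 13.9% of young CD8 T cells had a Ccl5 UMI, against 8.50%, 5.74% and 1.19% of B cells. Before thinning the CD8 T shares were 66.6%, 69.3% and 23.1%, at median depths of 6633, 5937 and 5980 UMIs, and B cells had medians of 3569, 3129 and 3417.

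Xcl1 was highest in the CD8 T cells of the aged+AA library. It stood at 32.8 CPM (29.9 to 35.9) in aged+AA, 21.1 (17.3 to 25.6) in aged and 5.93 (4.62 to 7.51) in young CD8 T cells, from 470, 106 and 69 UMIs. The aged level was 3.56 times the young level (2.61 to 4.90), and the aged+AA level was 1.55 times the aged level (1.25 to 1.93). After thinning, 2.99%, 1.97% and 0.332% of CD8 T cells had an Xcl1 UMI, against 0.0749%, 0.0689% and 0% of B cells. The order of the 3 libraries was the same in both measures.

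Ccl4 followed the order of Ccl5 in CD8 T cells. It stood at 41.7 CPM (38.4 to 45.2) in aged+AA, 96.5 (88.1 to 106) in aged and 6.45 (5.07 to 8.09) in young CD8 T cells, from 598, 484 and 75 UMIs. The aged level was 15.0 times the young level (11.7 to 19.3) and the aged+AA level 0.432 times the aged level (0.382 to 0.488). B cells, at lower levels, gave an aged+AA over aged ratio of 0.427 (0.345 to 0.525). Their aged over young ratio was 5.11 (3.49 to 7.72), and without the 1 young B cell that held 27 of 30 UMIs it was 51.1 (17.3 to 249). After the free RNA expected from haemoglobin UMIs was subtracted, the CD8 T ratios were 13.7 and 0.456. Thinned shares of CD8 T cells with a Ccl4 UMI were 3.67%, 7.76% and 0.498%, against 0.749%, 1.75% and 0.0397% of B cells.

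Ccl3 was low in CD8 T cells. It had 61, 62 and 3 UMIs in aged+AA, aged and young CD8 T cells, of which 13.2, 25.8 and 0.699 were expected from free RNA by haemoglobin. The levels were 4.25 (3.25 to 5.46), 12.4 (9.48 to 15.9) and 0.258 CPM, against 2.69 (2.05 to 3.47), 7.33 (6.11 to 8.72) and 0.297 CPM in B cells, so that the intervals of the 2 gates overlapped in aged+AA and, with all cells in, not in aged. Without the 1 aged CD8 T cell that held 10 of the 62 UMIs, the aged level was 10.4 CPM (7.76 to 13.6), and the intervals overlapped there too. With the expected free RNA subtracted, 3.33, 7.22 and 0.198 CPM remained in CD8 T cells. Thinned shares of 0.289%, 0.985% and 0% stood beside 0.243%, 0.758% and 0.0397% of B cells. Its aged over young ratio was 47.9 (15.7 to 239), beside 24.7 (8.25 to 121) in B cells, where 1 of the young cells held 2 of the 3 UMIs and the ratio without it was 74.0. Its aged+AA over aged ratio was 0.344 (0.237 to 0.498), beside 0.367 (0.265 to 0.504) in B cells. The part of free RNA in the Ccl3 and Ccl4 ratios of CD8 T cells was not tested beyond these values.

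Of the 10388 genes compared between aged and young CD8 T cells, 9.89% were at least 2-fold higher in aged, and 4 of 4 chemokine genes were, while 2.28% were at least 2-fold lower. The median log2 ratio was 3.55 for the 4 genes and 0.28 for all genes. Relative to the median gene, the aged over young ratios were 39.1 for Ccl3, 12.2 for Ccl4, 7.53 for Ccl5 and 2.91 for Xcl1. For aged+AA over aged, 3.09% of 10711 genes were at least 2-fold lower in aged+AA, among them Ccl3 and Ccl4, and 1.61% were at least 2-fold higher, none of the 4 among them. The medians were -0.78 for the 4 genes and -0.11 for all genes, and relative to the median gene the ratios were 0.373 for Ccl3, 0.468 for Ccl4, 0.848 for Ccl5 and 1.68 for Xcl1. The aged library is in both comparisons.

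**Figure D3:**
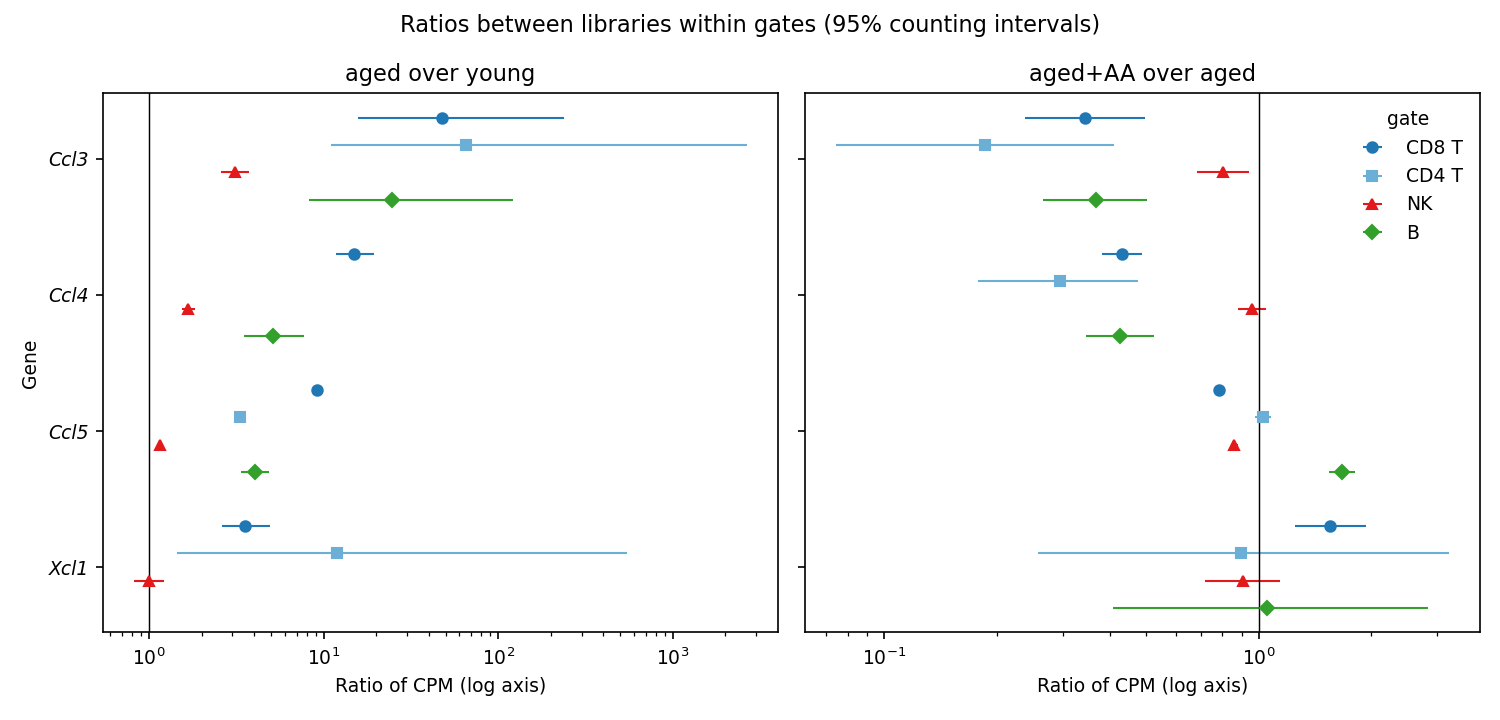
Ratio of CPM (x axis, log scale) for aged over young (left) and aged+AA over aged (right), by gene (y axis) and cell gate (symbols), with 95% counting intervals. Aged over young ratios of Ccl4 and Ccl5 are higher in CD8 T cells (15.0 and 9.22) than in NK cells (1.68 and 1.16), and the aged+AA over aged ratio of Xcl1 in CD8 T cells is 1.55, with NK cells at 0.906.

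CD8 T cells were split by marker UMIs into an effector type (1 UMI of Gzmk, Klrg1 or Cx3cr1), then a memory type (2 UMIs of Il2rb, Cxcr3 and Eomes together) and then a naive type (1 UMI of Lef1, Dapl1 or Ccr7). These are ranges set by UMIs, which depend on depth, and 32, 17 and 7 cells stayed unsplit. The effector type made up 9.50% (8.27 to 10.8) of aged+AA, 21.7% of aged and 1.71% of young CD8 T cells, the memory type 39.3%, 39.3% and 23.6%, and the naive type 49.6%, 36.9% and 74.3%. Median depths were 4874, 3904 and 4648 UMIs in the effector type, 7920, 7120 and 7272 in the memory type and 6129, 5839 and 5758 in the naive type.

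Within the effector and memory types the Ccl5 level of the aged+AA library was within 1% of that of the aged library. In the effector type Ccl5 stood at 29844 CPM in aged+AA, 29712 in aged and 19954 in young cells, an aged+AA over aged ratio of 1.00 (0.988 to 1.02) and an aged over young ratio of 1.49 (1.44 to 1.54). In the memory type it stood at 8091, 8045 and 1576 CPM, with ratios of 1.01 (0.989 to 1.02) and 5.10 (4.95 to 5.26). In the naive type it stood at 1628, 908 and 145 CPM, with ratios of 1.79 (1.70 to 1.89) and 6.24 (5.79 to 6.73), and 49 of 1029, 9 of 300 and 10 of 1344 cells held 50% of the UMIs. The whole-gate ratio of 0.783 thus stood below all 3 within-type ratios. Unsplit cells, which held 2.58% of the aged+AA and 3.37% of the aged Ccl5 UMIs of the gate, are not among the 3 types. Their ratio was 0.721 without the aged+AA cell with most Ccl5 UMIs and 0.840 without the aged one. With the types weighted as in the young library, a comparison chosen after the data were seen, the aged+AA over aged ratio was 1.14 and the aged over young ratio 3.64.

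**Figure D4:**
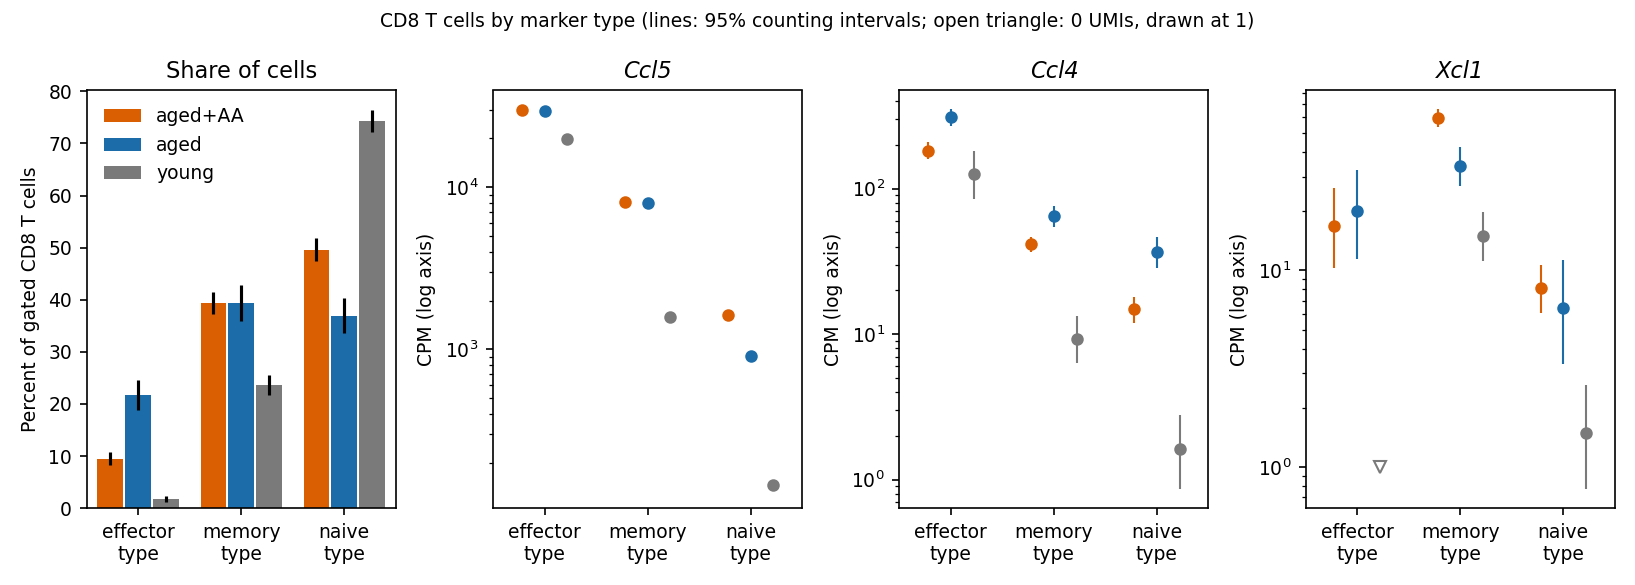
Share of gated CD8 T cells in each marker type (left; y axis in percent) and level of Ccl5, Ccl4 and Xcl1 in each type (y axes in CPM, log scale), for aged+AA, aged and young, with lines for 95% counting intervals. Effector type cells make up 9.50%, 21.7% and 1.71% of the gate, Ccl5 is level between aged+AA and aged in the effector and memory types, and Xcl1 is highest in the aged+AA memory type.

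Xcl1 lay mostly in the memory type, which held 84.0% of the Xcl1 UMIs of aged+AA, 73.6% of aged and 72.5% of young CD8 T cells. There it stood at 59.7 CPM (53.9 to 65.9), 33.9 (26.8 to 42.3) and 15.0 (11.2 to 19.8), an aged+AA over aged ratio of 1.76 (1.38 to 2.28) and an aged over young ratio of 2.25 (1.56 to 3.28). In the effector type it had 20, 16 and 0 UMIs, and the aged level was 1.53 times a floor of 3 UMIs over the young cells of the type. Without the 1 aged cell that held 3 of the 16, the lower end of the aged over young interval was 0.890. In the effector type Ccl5 was at its highest of the 3 types in every library, which was not so for Xcl1. Of aged+AA CD8 T cells with an Xcl1 UMI, 98.3% also had Ccl5, against 61.2% of those without, and the figures were 94.5% and 66.8% in aged and 93.0% and 21.4% in young cells. These shares were taken before thinning, at the depth that both genes have in common. After thinning, 96.8% of aged+AA, 100% of aged and 83.3% of young CD8 T cells with an Xcl1 UMI also had Ccl5. The figures for those without were 52.0%, 58.3% and 13.7%. Only 62, 16 and 6 thinned cells had an Xcl1 UMI, and the differences were not tested.

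Ccl4 was lower in aged+AA than in aged cells in the effector type, whereas in the memory type the difference depended on 1 aged cell. It stood at 183, 309 and 127 CPM in the effector type, with an aged+AA over aged ratio of 0.591 (0.490 to 0.712). The memory type had Ccl4 at 41.5, 64.7 and 9.32 CPM, with a ratio of 0.642 (0.524 to 0.789). Without the 1 aged memory type cell that held 41 of 149 UMIs, this ratio was 0.885 (0.706 to 1.12). Without the 1 aged+AA cell that held 40 of 275, it was 0.550 (0.446 to 0.679). In the naive type Ccl4 stood at 14.8, 36.7 and 1.62 CPM, and 1 aged cell held 38 of the 68 UMIs. The aged+AA over aged ratio was 0.403 (0.292 to 0.559) with this cell and 0.911 (0.599 to 1.42) without it. Ccl3 in the effector type had 38, 27 and 2 UMIs, or 32.1, 33.8 and 8.72 CPM, an aged+AA over aged ratio of 0.951 (0.566 to 1.62).

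CD4 T cells, gated with 1 UMI of Cd4 and none of Cd8a or Cd8b1, numbered 696, 577 and 1063. Their Ccl5 lay in few cells, 11, 8 and 5 of which held 50% of the UMIs, with up to 327, 295 and 278 UMIs in a cell. The gate level was 1075 CPM in aged+AA, 1049 in aged and 314 in young cells, an aged over young ratio of 3.34 (3.14 to 3.54) and an aged+AA over aged ratio of 1.02 (0.976 to 1.08). The aged+AA over aged ratio was 0.938 (0.893 to 0.986) without the aged+AA cell of 327 UMIs. Without the aged cell of 295 UMIs it was 1.14 (1.09 to 1.20). Ccl4 had 25, 65 and 0 UMIs, of which 13.1, 39.4 and 1.58 were expected from free RNA by haemoglobin, and the aged+AA level was 0.295 times the aged level (0.178 to 0.475). The thinned shares of cells with Ccl4 were 1.01%, 2.78% and 0%, and with Ccl3, which had 8, 33 and 1 UMIs, 0%, 0.696% and 0%, below or near the B-cell shares for Ccl3. Xcl1 had 7, 6 and 1 UMIs. At least 2-fold higher in aged than young CD4 T cells were 12.7% of 9459 genes and 3 of the 3 chemokine genes with enough UMIs, and 2.4% were at least 2-fold lower. At least 2-fold lower in aged+AA than aged CD4 T cells were 3.22% of 9250 genes and 2 of the 3, Ccl3 and Ccl4, and 1.28% were at least 2-fold higher. The B-cell ratios of Ccl3 and Ccl4 given above went the same way in both comparisons. Aged CD4 T cells held Ccl3 and Ccl4 at 4.52% and 4.05% of the free RNA level, beside 2.74% and 2.58% in B cells. In aged+AA the values were 3.63% and 3.76%, beside 4.35% and 3.46%. The part of free RNA in these counts was not tested.

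NK cells had the 4 genes in every library. Ccl5 was in 98.5% of aged+AA, 100% of aged and 99.7% of young NK cells, at 21257, 24683 and 21242 CPM, and in 27.2%, 18.2% and 4.39% of B cells. The aged over young ratio was 1.16 (1.14 to 1.18) and the aged+AA over aged ratio 0.861 (0.844 to 0.879). Ccl3 stood at 340 CPM (299 to 385), 424 (385 to 465) and 136 (116 to 160), and thinned shares of cells with it were 23.8%, 27.1% and 10.6%. Its aged over young ratio was 3.11 (2.58 to 3.75), and of 7348 genes 4.76% were at least 2-fold higher in aged and 2.52% at least 2-fold lower, Ccl3 being the 1 of the 4 chemokine genes among those higher. Ccl4 stood at 1243, 1296 and 771 CPM, with thinned shares of 48.1%, 47.7% and 32.1% and an aged over young ratio of 1.68 (1.54 to 1.83). Xcl1 stood at 175, 193 and 193 CPM, an aged over young ratio of 0.997 (0.820 to 1.21), and 8, 8 and 6 cells held 50% of its UMIs.

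The aged+AA NK level was close to the aged level for Ccl4, at 0.959 times (0.880 to 1.04), and Xcl1, at 0.906 times (0.720 to 1.14), and lower for Ccl3, at 0.802 times (0.683 to 0.939). Without 1 aged NK cell that held 39 of the 442 Ccl3 UMIs, the Ccl3 ratio was 0.873 (0.741 to 1.03). None of the 4 chemokine genes was at least 2-fold higher or lower, as were 2.00% and 2.98% of 6903 genes. NK cells with a Ccl3 UMI more often had Ccl4 as well. After thinning, 63.6% of aged+AA, 69.0% of aged and 55.9% of young NK cells with Ccl3 also had Ccl4, against 43.3%, 39.8% and 29.3% of those without. No test was made of these shares, which come from cells of 1 library each.

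Basophils had the highest levels of Ccl3 and Ccl4 of all gates. Ccl3 stood at 18784 CPM (17190.5 to 20485.5) in the 13 aged+AA and 17914 (17447 to 18391) in the 86 aged basophils, from 511 and 5568 UMIs, and was seen in 100% and 97.7% of them. Ccl4 stood at 39296 and 34043 CPM, from 1069 and 10581 UMIs, in 100% of both. In B cells, Ccl3 was seen in 1.00% of aged+AA and 2.88% of aged cells and Ccl4 in 2.10% and 5.80%. The aged+AA over aged ratios were 1.05 (0.956 to 1.15) for Ccl3 and 1.15 (1.08 to 1.23) for Ccl4. Without the 1 aged+AA basophil that held 175 of the 511 Ccl3 UMIs, the Ccl3 ratio was 0.873 (0.780 to 0.975). Without the 1 that held 328 of the 1069 Ccl4 UMIs, the Ccl4 ratio was 1.01 (0.939 to 1.09). Ccl5 had 1 and 33 UMIs and Xcl1 0 and 1 in these cells. Over all kept cells the aged+AA over aged ratios were 0.147 for Ccl3 and 0.180 for Ccl4. They stood beside ratios of 1.05 and 1.15 within basophils with all cells in. Basophils made up 0.118% of aged+AA and 0.885% of aged cells.

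Neutrophils, gated by Csf3r, Retnlg, Cxcr2 and Mmp9, had Ccl3 at 754 CPM in aged+AA, 380 in aged and 218 in young cells, and Ccl4 at 828, 588 and 58.1 CPM. There were 176, 908 and 16 cells, so the young values are those of few cells, and 1 young cell held 14 of the 15 Ccl3 UMIs, leaving 14.9 CPM without it. The aged+AA over aged ratios were 1.98 (1.76 to 2.23) for Ccl3 and 1.41 (1.26 to 1.57) for Ccl4. Without 1 aged+AA cell that held 77 of the 380 Ccl4 UMIs, the Ccl4 ratio was 1.13 (0.996 to 1.27). A basophil marker UMI was also present in 9 of the 908 aged cells, which held 37.1% of the Ccl3 and 47.8% of the Ccl4 UMIs. Without them the aged levels were 241 and 310 CPM and the ratios 3.12 and 2.67. Of 7215 genes, 3.89% were at least 2-fold higher and 11.7% at least 2-fold lower in aged+AA neutrophils, and none of the 3 chemokine genes with enough UMIs reached either fold with all cells in.

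Monocytes, gated by Csf1r, Ms4a6c, Treml4 and F13a1, had less of both. Ccl3 stood at 39.1 CPM in the 124 aged+AA, 86.2 in the 1227 aged and 7.67 in the 52 young monocytes, and Ccl4 at 16.5, 79.9 and 0 CPM. The aged+AA over aged ratios were 0.453 (0.295 to 0.669) and 0.207 (0.103 to 0.372). The gate markers also differed between libraries, with F13a1 at 180, 640 and 30.7 CPM and Treml4 at 293, 122 and 434 CPM. Ms4a6c was highest in aged, like F13a1, and Csf1r lowest there, like Treml4. The part of the gate's make-up in these ratios was not tested. In aged monocytes 3 cells held 50% of the Ccl4 UMIs, and 4 cells with a basophil marker held 34.3%, without which the ratios were 0.501 for Ccl3, then just short of 2-fold, and 0.313 for Ccl4. In aged+AA monocytes 1 cell held 5 of the 11 Ccl4 UMIs, and without it the ratio was 0.114. Lower by at least 2-fold in aged+AA monocytes were 6.80% of 10071 genes, Ccl3 and Ccl4 among them, and 8.22% were at least 2-fold higher, Ccl5 among them. Ccl5 stood at 73.6 CPM in aged+AA and 30.9 in aged monocytes, from 49 and 322 UMIs, of which 44.5 and 309 were expected from free RNA by haemoglobin, and B cells stood at 87.6 and 52.6 CPM. Xcl1 had 0, 6 and 0 UMIs over all myeloid cells, none of which exceeded 1 per cell.

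Ccr1, a receptor of Ccl3 and Ccl5, had 431 UMIs in aged+AA, 1491 in aged and 24 in young neutrophils, an aged+AA over aged ratio of 2.10 (1.88 to 2.34). In monocytes it stood at 18.0 CPM in aged+AA, 41.6 in aged and 0 in young cells, an aged+AA over aged ratio of 0.433 (0.222 to 0.765).

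Of the cytokine genes Ifng, Tnf, Fasl, Csf2 and Il2, 3 had at least 50 UMIs in CD8 T cells, of which 2 were at least 2-fold higher and 1 at least 2-fold lower in aged than in young, beside 9.89% and 2.28% of all genes. Ifng, the gene of interferon gamma, was at 14.4, 22.5 and 3.44 CPM, an aged over young ratio of 6.55 (4.53 to 9.65). Fasl, a death ligand of cytotoxic cells, was at 39.6, 48.1 and 8.69 CPM, a ratio of 5.53 (4.37 to 7.05). Tnf went the other way, at 12.3, 4.99 and 19.2 CPM, with an aged over young ratio of 0.260 (0.165 to 0.394) and an aged+AA over aged ratio of 2.46 (1.61 to 3.91).

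Of 8 transcription factor genes reported for these chemokines or for effector cells (Tbx21, Eomes, Runx3, Prdm1, Zeb2, Klf13, Batf and Irf8), 4 were at least 2-fold higher in aged than in young CD8 T cells and 0 at least 2-fold lower, beside 9.89% and 2.28% of all genes. Runx3, Klf13 and Batf had ratios of 1.10, 1.01 and 0.939, and the list had a median log2 ratio of 0.96 against 0.28 for all genes. Zeb2 was at 28.4, 55.8 and 4.64 CPM, a ratio of 12.0 (8.96 to 16.4), and Tbx21, the gene of T-bet, at 12.1, 13.8 and 2.32 CPM, a ratio of 5.93 (3.75 to 9.62). Eomes, also used in the memory type, was at 52.3, 74.2 and 13.2 CPM. For aged+AA over aged, all 8 ratios were under 1 and none reached 2-fold, with a median log2 ratio of -0.31 against -0.11 for all genes. In NK cells 4 of the 8 were above 1 for aged over young, and the median was -0.02.

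Immediate early genes are switched on within minutes of a stimulus or of handling, and the list held 8 of them (Fos, Jun, Junb, Egr1, Nr4a1, Ier2, Dusp1 and Dusp2). In CD8 T cells 1 of the 8 was at least 2-fold lower in aged than in young and 0 at least 2-fold higher, beside 2.28% and 9.89% of all genes, and the median log2 ratio was -0.51. For aged+AA over aged 0 of the 8 were at least 2-fold higher or lower, beside 1.61% and 3.09% of all genes, 7 had a ratio above 1, and the median was 0.47. Dusp2 was at 578, 390 and 785 CPM in CD8 T cells and Fos at 279, 172 and 286 CPM. In NK cells the median log2 ratio of aged over young was -0.49, and that of aged+AA over aged was 0.45. In neutrophils, where Ccl3 and Ccl4 were higher in aged+AA than in aged cells, 7 of the 8 had an aged+AA over aged ratio above 1, and the median was 0.73. Of the 8, 1 was at least 2-fold higher and 0 at least 2-fold lower, beside 3.89% and 11.7% of all genes. B cells and monocytes, where Ccl3 and Ccl4 were lower in aged+AA, had 7 and 6 of the 8 above 1, with medians of 0.85 and 0.39. The part of these genes in the chemokine ratios was not tested.

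Of 29 other chemokine genes, 8 had at least 50 UMIs in monocytes and 7 in neutrophils. Cxcl2, an attractant of neutrophils, had 5150, 19730 and 566 UMIs in neutrophils, at 11221, 5926 and 8216 CPM, and an aged+AA over aged ratio of 1.89 (1.84 to 1.95). In CD8 T cells Cxcl2 had 46, 48 and 2 UMIs and an aged+AA over aged ratio of 0.335 (0.219 to 0.513), beside 0.344 for Ccl3. Ccl2, an attractant of monocytes, stood at 162, 239 and 19.2 CPM in monocytes. Ccl6 and Ccl9, which lie between Ccl5 and Ccl3 on chromosome 11, stood at 577, 624 and 529 CPM and at 179, 387 and 115 CPM in aged+AA, aged and young monocytes.

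Genes most alike in pattern were sought among 10857 genes over 21 gate-by-library points, which share libraries and depth, by Pearson correlation of log2(CPM + 1). Nearest to Ccl5 were Il2rb (r = 0.984), Ctsw (0.974), Nkg7 (0.973), Eomes (0.957) and Ppm1j (0.957). Nearest to Xcl1 were Klrc2 (0.973), Klrc1 (0.970), Kcnj8 (0.963), Eomes (0.961) and Klre1 (0.961), the last being a marker of the NK gate. Nearest to Ccl3 was Ric8a (0.936) and to Ccl4 1810058I24Rik (0.921). Ccl3 and Ccl4 correlated with each other at 0.925 and Ccl5 with Xcl1 at 0.917, whereas Ccl3 and Ccl5 stood at 0.062.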

How the data were processed

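Blood mononuclear cells were isolated on lymphocyte separation medium and made into 10x 3' v3 libraries, per the labels' protocols. The deposited values were raw UMI counts by gene and barcode, unfiltered, written by Cell Ranger 4 per the file headers. The genome build mm10 and Seurat 3.1.0 are named in the submitters' processing notes. Cell classes came from marker UMIs alone.

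A barcode was a cell above 1979 (aged+AA), 2157 (aged) or 1839 (young) UMIs, set from the largest 5000 barcodes, or from 500 UMIs if its profile differed from free RNA (FDR 0.01, 10000 draws). Cells needed 500 UMIs, 250 genes and at most 10% mitochondrial UMIs. Scrublet in scanpy 1.11.5 removed 465 aged+AA, 459 aged and 367 young predicted doublets (4.06%, 4.51% and 4.02%). The gene minimum had taken out 2265, 5836 and 1210 barcodes, and the mitochondrial limit 540, 216 and 489. A cell entered a gate with at most 1 UMI of the markers of each other class, with the following exceptions. T cells had no limit on NK markers. Monocytes, neutrophils and basophils had no limit on each other's markers and went to the class with the largest marker sum. No gate was entered by 697, 667 and 387 cells.

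Levels are summed UMIs over the gate's total, per 1000000. Gates were compared from 50 cells on genes with at least 20 UMIs, adding 0.5 to each count for shares of genes past 2-fold. Zero counts were set against a floor of 3 UMIs. Free RNA per gate came from haemoglobin UMIs of the median cell. The ratio step was tested on simulated data. Values are given for list genes with at least 50 UMIs over the 3 libraries in a gate, and the 5 genes most alike were taken from those with at least 200 UMIs. Of the other chemokine genes, Ccl19, on more than 1 feature row, and Cxcl11, on none, gave no value. Part of the receptor list is not reported here.

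The genes and lists were chosen with earlier results of these data known, and 5 alternatives and the rule behind the results singled out at the end were chosen after the data were seen. Promoters came from RefSeq, where 2 of the 4 genes matched. Software was Python 3.11.15, numpy 2.4.6, scipy 1.17.1 and matplotlib 3.10.9.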

Additional observations from a re-analysis of the deposited data

Results flagged for a closer look

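Cells that entered no gate held Ccl3 and Ccl4 outside the comparisons above. Ccl3 stood at 114 CPM in ungated aged+AA, 563 in ungated aged and 4.24 in ungated young cells, and Ccl4 at 225, 1233 and 5.09 CPM. In the aged library 41 of 667 ungated cells had a basophil marker UMI and held 73.5% of these Ccl3 and 74.4% of these Ccl4 UMIs. Without them the aged levels were 155 and 327 CPM.

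With all cells in, ratios of aged+AA over aged went opposite ways between cell types, with intervals on opposite sides of 1. The difference between the types was not tested. For Ccl3 the ratio was 1.98 in neutrophils, against 0.802 in NK cells and 0.453 in monocytes. For Ccl4 it was 1.41 in neutrophils, against 0.432 in CD8 T cells and 0.207 in monocytes. The neutrophil ratios were 3.12 and 2.67 without the 9 aged cells with a basophil marker. Without 1 aged+AA neutrophil that held 77 of 380 Ccl4 UMIs, the Ccl4 ratio was 1.13 (0.996 to 1.27). Without 1 aged NK cell that held 39 of 442 Ccl3 UMIs, the Ccl3 ratio was 0.873 (0.741 to 1.03). Both intervals then took in 1. The other intervals stayed on their side of 1 without the cell with most UMIs in either library.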

How the results depend on the processing

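No paired analysis was possible because each group had 1 library. Of the values for CD8 T cells under the alternatives, 105 moved by less than their counting interval, 29 moved further and 1 changed direction. Of the values for other gates, shares and free RNA, 301 moved by less and 85 by more, and no ratio whose interval left out 1 changed direction. The cause of these changes was not tested. Weighting the CD8 T types as in the young library turned the Ccl5 aged+AA over aged ratio round to 1.14, and gave 0.216 for Ccl3 and 0.511 for Ccl4. The same weighting gave aged over young ratios of 7.88 for Ccl4, 3.64 for Ccl5 and 2.45 for Xcl1.

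The loose gate gave aged over young ratios of 258 for Ccl3, 29.0 for Ccl4 and 8.91 for Ccl5, and aged+AA over aged ratios of 0.0639 for Ccl3 and 0.225 for Ccl4. The strict gate gave 10.3 and 0.738 for Ccl5. Without cells with NK markers, aged over young was 23.6 for Ccl4 and 12.7 for Ccl5, and aged+AA over aged 0.774 for Ccl5. Thinning to 1000 UMIs gave aged over young ratios of 22.1 for Ccl4, 11.5 for Ccl5 and 5.41 for Xcl1, and aged+AA over aged ratios of 0.363 for Ccl4 and 0.659 for Ccl5. At most 5% mitochondrial UMIs gave aged over young ratios of 11.0 for Ccl4 and 7.65 for Ccl5, and keeping doublets 8.96 for Ccl5. For Ccl5, leaving mitochondrial and ribosomal genes out of the total gave 7.84 and 0.860, and scaling to the median gene 7.53 and 0.848. Free RNA estimated from Ccl5 in B cells gave 0.539 for Ccl3 in aged+AA over aged and 26.0 in aged over young, the lowest for that ratio. Without the young cell with most UMIs, aged over young was 9.48 for Ccl5. Xcl1 in aged+AA over aged ran from 1.33 to 1.70 over 17 alternatives. Thinning gave no aged over young ratio for Ccl3, which then had no UMI in young CD8 T cells. Depth limited Ccl3 in CD8 T cells, with 3 UMIs in the young library.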
